A study of Mus musculus with 36 samples.

Results

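The question here was for which genes the difference between 65–79*SE and 65–79*PE, a pair of peptides, depended on the cytokine given with them. In the mouse macrophage line RAW264.7 the difference between the peptides was taken with IFNγ and again with Il-4, and the second difference was subtracted from the first. This quantity is called the interaction, and the differences it is made of are called the IFNγ term and the Il-4 term. It used 12 of the 36 libraries of the series, replicates 1, 2 and 3 of 4 groups: 65–79*SE with IFNγ, 65–79*PE with IFNγ, 65–79*SE with Il-4 and 65–79*PE with Il-4. Both are synthetic peptides from the same stretch of a human HLA-DRβ chain, 65–79*SE with the shared epitope of alleles tied to rheumatoid arthritis risk and 65–79*PE with the protective epitope. Each peptide was given at 100 µg/ml and each cytokine at 5 ng/ml for 72 h. None of these groups had a peptide without a cytokine, or a cytokine without a peptide. RAW264.7 is 1 transformed line kept in culture, not tissue macrophages.

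The IFNγ libraries and the Il-4 libraries were in separate count tables, so that cytokine, table and experiment cannot be told apart. The tables differed in which genes held counts, and the cause was not tested. Between the PBS groups, cells treated with PBS in place of peptide, 200 genes were above 5 CPM (per-million counts, relative to all counts of a library) in the IFNγ table and at 0 counts in all 3 libraries of the Il-4 table, and 152 of them were pseudogenes. None were the other way round. Pseudogenes held 12.1 to 12.7% of the counts of the 6 IFNγ libraries and 0.464 to 0.524% of those of the 6 Il-4 libraries. A gene poorly listed in one table has no usable interaction, and levels are compared below only within a table. Total counts per library were 29293589 to 33833725 with IFNγ and 23307445 to 26611935 with Il-4. A count of 0 allows up to 3 counts, at most 0.129 CPM in these libraries, which covers counting error only. All 13 macrophage identity genes were above 1 CPM in every group. Their sums were 7463 to 7806 CPM in 65–79*SE and 6657 to 6784 in 65–79*PE with IFNγ, without overlap, and overlapped with Il-4. In the same libraries summed B cell, fibroblast, epithelial and neutrophil markers stayed at or under 1.42 CPM. Summed endothelial markers were at 1.15 to 2.04 CPM in 65–79*SE and 0.930 to 1.02 in 65–79*PE with IFNγ, with 1 of 4 genes over 1 CPM in the former, and at or under 0.752 CPM with Il-4. Summed T cell markers were at 16.9 to 21.2 CPM in the IFNγ libraries and 6.32 to 12.03 in the Il-4 libraries, with 1 of the 6 genes over 1 CPM in each group. The part of these markers in the results was not tested.

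IFNγ acts through its receptor and a Janus kinase pathway, and in macrophages it turns on antigen presentation, immunity-related GTPases and chemokines, the state often called M1. Il-4 signals through STAT6 and turns on genes of alternative activation, the state often called M2. Such states also differ in sterol synthesis, in the secretory pathway and in glycolysis. The mean log2(CPM + 0.5) of an IFNγ response list was 5.68 ± 0.055 (SD, n = 3) for 65–79*SE with IFNγ and 5.57 ± 0.023 for 65–79*PE with IFNγ, against 2.07 ± 0.041 for PBS of that table. For the Il-4 response list the mean was 1.69 ± 0.13 for 65–79*SE with Il-4 and 1.68 ± 0.20 for 65–79*PE with Il-4, against 0.52 ± 0.086 for PBS. The cytokine response was thus present under both peptides. Replicates 4, 5 and 6 could not repeat the IFNγ term, because those labelled 65–79*SE with IFNγ scored 1.88 ± 0.11 on the IFNγ list, as low as PBS.

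In all, 576 of 15204 genes tested had a peptide difference that depended on the cytokine (3.79%), 351 positive (2.31%) and 225 negative (1.48%). Positive means that 65–79*SE relative to 65–79*PE was higher with IFNγ than with Il-4. Genes were called at an adjusted p-value under 0.05 in the quasi-likelihood test of edgeR and an interaction over 1.5-fold. At the adjusted p-value alone 1078 genes passed. The median interaction over all genes tested was -0.04 on the log2 scale. With IFNγ alone 809 genes were called between the peptides (5.32%). With Il-4 none were called (0%), none passed the adjusted p-value alone, and 1251 had an unadjusted p-value under 0.05 in edgeR. DESeq2 called 1 gene with Il-4, and a fit with the replicate number as a block called 3. A block fitted to the 6 Il-4 libraries alone called 0. With SE replicate 1 left out, however, 125 genes were called with Il-4, 27 higher and 98 lower with 65–79*SE. Without replicate 1 of both peptides, 56 were called. The Il-4 libraries of replicate 1 deviated together from their group means, with a correlation of 0.378 over genes.

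The interaction therefore rested mainly on the IFNγ term. Of the 576 genes, 379 were called between the peptides with IFNγ, none with Il-4, and 197 in neither term. In 540 the IFNγ term was the larger. Over the 571 called genes above the floor of 3 counts in some Il-4 library, the median size was 0.69 for the IFNγ term and 0.15 for the Il-4 term (log2). In 409 of the 576 the 95% interval of the Il-4 term lay within 1.5-fold either way. Libraries of the peptides did not overlap in 562 of them with IFNγ, where 45.4% of all genes tested did not overlap, and in 106 with Il-4, where 8.77% did not. The Il-4 term had the opposite sign in 491, a count that choosing genes by a difference of terms pushes up. Another 430 genes were called between the peptides with IFNγ but not for the interaction, and for these a dependence on the cytokine was not shown.

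**Figure D1:**
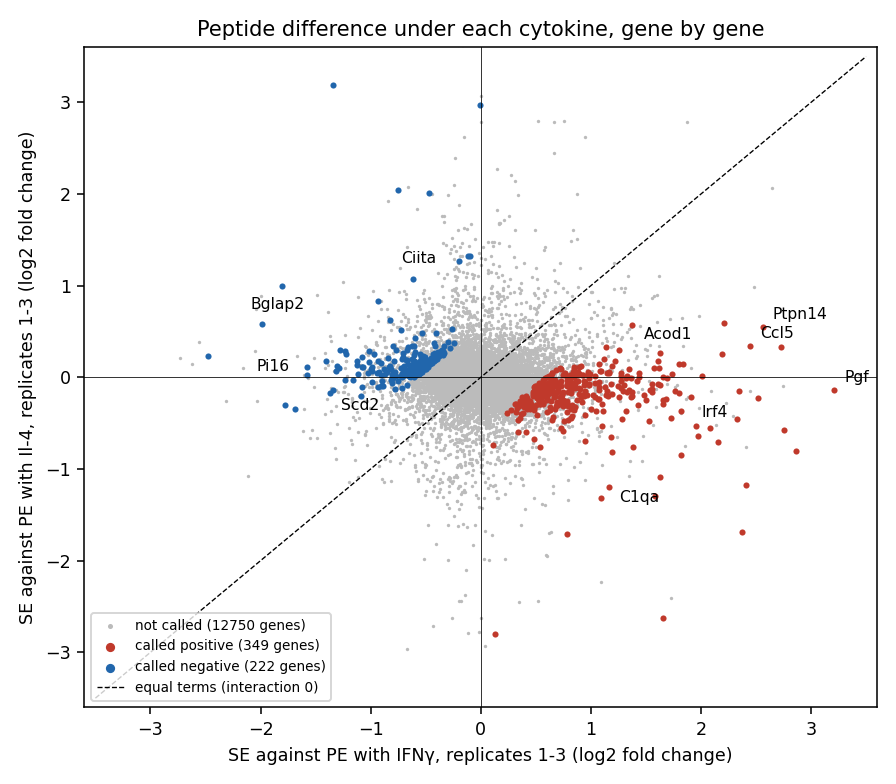
Each of 13321 genes above the Il-4 floor is a point, with 65–79*SE against 65–79*PE with IFNγ on the horizontal axis and the same with Il-4 on the vertical axis (log2 fold change, replicates 1–3), and 29 genes lie beyond the axes. Called genes (red positive, blue negative) spread along the horizontal axis, and 405 of the 576 had an Il-4 value under 0.25 in size.

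Among positive genes, those with the largest interaction were mostly genes of secreted factors, inflammatory enzymes and their regulators. Pgf, which encodes placental growth factor, a ligand of the VEGF receptor Flt1, was at 15.8, 12.01 and 13.4 CPM in 65–79*SE with IFNγ and at 1.37, 1.24 and 1.76 in 65–79*PE with IFNγ. With Il-4 it was at 1.51, 2.34 and 1.66 CPM in 65–79*SE and at 1.84, 2.06 and 2.20 in 65–79*PE. The peptides were far apart with IFNγ and overlapped with Il-4. Its interaction was 3.35 ± 0.29 (log2, SE of the fit, adjusted p = 8.92e-05 by edgeR). Pgf is at chr12:85166635-85177790 on the minus strand of GRCm38.

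Ccl5, a chemokine that draws T cells and monocytes, was at 67.7, 59.8 and 56.4 CPM in 65–79*SE with IFNγ and at 10.9, 11.3 and 10.9 in 65–79*PE with IFNγ. With Il-4 it was near 1 CPM, at 1.92, 1.63 and 1.16 against 1.50, 1.20 and 1.04 CPM. The Il-4 values overlapped, and the interaction was 2.10 ± 0.24 (adjusted p = 3.71e-04). Acod1, the mitochondrial enzyme that makes itaconate, was at 311, 230 and 298 CPM in 65–79*SE with IFNγ and at 57.6, 60.0 and 63.5 in 65–79*PE with IFNγ. With Il-4 its libraries mixed, at 16.8, 39.3 and 33.9 for 65–79*SE and 19.7, 29.4 and 27.5 CPM for 65–79*PE. Its interaction was 1.94 ± 0.33 (adjusted p = 0.00427). With Il-4 replicates 4–6 in place of 1–3, described further on, edgeR no longer called the interaction of Pgf (1.97, adjusted p = 0.0928), Ccl5 (0.83, adjusted p = 0.61) or Acod1 (0.44, adjusted p = 0.803).

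Ptgs2, the inducible cyclooxygenase of prostaglandin synthesis, was at 127, 97.2 and 128 CPM in 65–79*SE with IFNγ and at 40.6, 51.9 and 30.1 in 65–79*PE with IFNγ. All 6 Il-4 libraries were at 1.42 to 1.93 CPM, with those of 65–79*SE below those of 65–79*PE. The interaction was 1.76 ± 0.31 (adjusted p = 0.00500), and 0.26 (adjusted p = 0.924) with Il-4 replicates 4–6. Myc and the phosphatase gene Dusp1, both immediate early genes, behaved alike with IFNγ, with 27.9 to 32.7 against 7.73 to 9.08 CPM for Myc and 50.6 to 60.9 against 15.7 to 17.6 CPM for Dusp1. With Il-4 replicates 4–6 the interaction of Myc was 0.41 and not called, and that of Dusp1 was 1.36 and called.

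In other positive genes 65–79*PE with IFNγ was below PBS. Irf4, a transcription factor used in Il-4 responses, was at 13.3, 10.3 and 11.5 CPM in 65–79*SE with IFNγ, at 2.49, 3.56 and 3.11 in 65–79*PE with IFNγ, and at a mean of 6.18 in PBS of that table. PBS lay between the peptides, with 65–79*SE above it and 65–79*PE below it. With Il-4, Irf4 was at 29.8, 16.8 and 16.3 CPM in 65–79*SE and at 34.2, 18.5 and 20.9 in 65–79*PE, and replicate 1 was the highest under both. Its interaction was 2.13 ± 0.36 (adjusted p = 0.00427). Gda, a guanine deaminase, was at 16.6, 13.2 and 17.3 CPM against 5.29, 4.99 and 4.52 with IFNγ, and PBS had a mean of 20.9. Tmem26 was at 3.91, 3.23 and 3.96 CPM against 0.410, 0.805 and 0.673 with IFNγ, and PBS had a mean of 4.46. For both genes 65–79*SE was below the PBS mean and 65–79*PE farther below it. With Il-4 the peptides overlapped at 31.2 to 52.1 CPM for Gda and 20.6 to 48.1 CPM for Tmem26.

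The place of PBS was counted for the genes whose IFNγ term was the larger and that were above the Il-4 floor, which left out 1 of the 540, Bglap3. Of 331 such positive genes, PBS was below both peptides in 123, between them in 141 and above both in 67. 65–79*SE lay farther from PBS than 65–79*PE in 203 (61.3%), against 49.1% of all genes above that floor with a positive IFNγ term. Of 208 such negative genes, PBS was above both in 87, between in 86 and below both in 35. In 140 of them (67.3%) 65–79*SE lay farther from PBS, against 59.1% of all genes above that floor with a negative IFNγ term. The shares of all genes were not limited to a larger IFNγ term. PBS had no cytokine response, so a distance from it holds cytokine and peptide together.

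Among negative genes, the largest interactions of genes well listed in both tables included Pi16, Fkbp11, Acy1, Scd2 and Avil. Pi16, a secreted peptidase inhibitor, was at 17.1, 22.2 and 18.7 CPM in 65–79*SE with IFNγ and at 54.0, 53.3 and 62.9 in 65–79*PE with IFNγ. The Il-4 libraries were at 32.6, 26.8 and 34.3 against 28.7, 34.2 and 29.8 CPM. The peptides were apart with IFNγ, on either side of the PBS mean of 37.9, and overlapped with Il-4. The interaction was -1.60 ± 0.17 (adjusted p = 2.79e-04). Fkbp11, a prolyl isomerase of the endoplasmic reticulum, was at 25.7, 34.4 and 31.9 CPM in 65–79*SE with IFNγ, while 65–79*PE with IFNγ at 60.8, 63.9 and 73.1 was near the PBS mean of 63.7. With Il-4 the libraries lay between 61.5 and 96.0 CPM and overlapped (interaction -1.31 ± 0.21, adjusted p = 0.00346).

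Scd2, a stearoyl-CoA desaturase, was at 89.8, 102 and 111 CPM in 65–79*SE with IFNγ and at 248, 264 and 245 in 65–79*PE with IFNγ. The Il-4 values were 541, 430 and 506 against 597, 514 and 533 CPM, and the interaction was -1.20 ± 0.13 (adjusted p = 2.96e-04). Acy1, an aminoacylase, was the only gene of these 5 whose peptides did not overlap with either cytokine. It was at 6.04, 7.66 and 5.82 against 11.5, 12.5 and 14.8 CPM with IFNγ, and at 63.0, 72.4 and 64.5 against 54.1, 54.3 and 57.5 CPM with Il-4, in the opposite order. The interaction was -1.30 ± 0.17 (adjusted p = 9.04e-04).

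**Figure D2:**
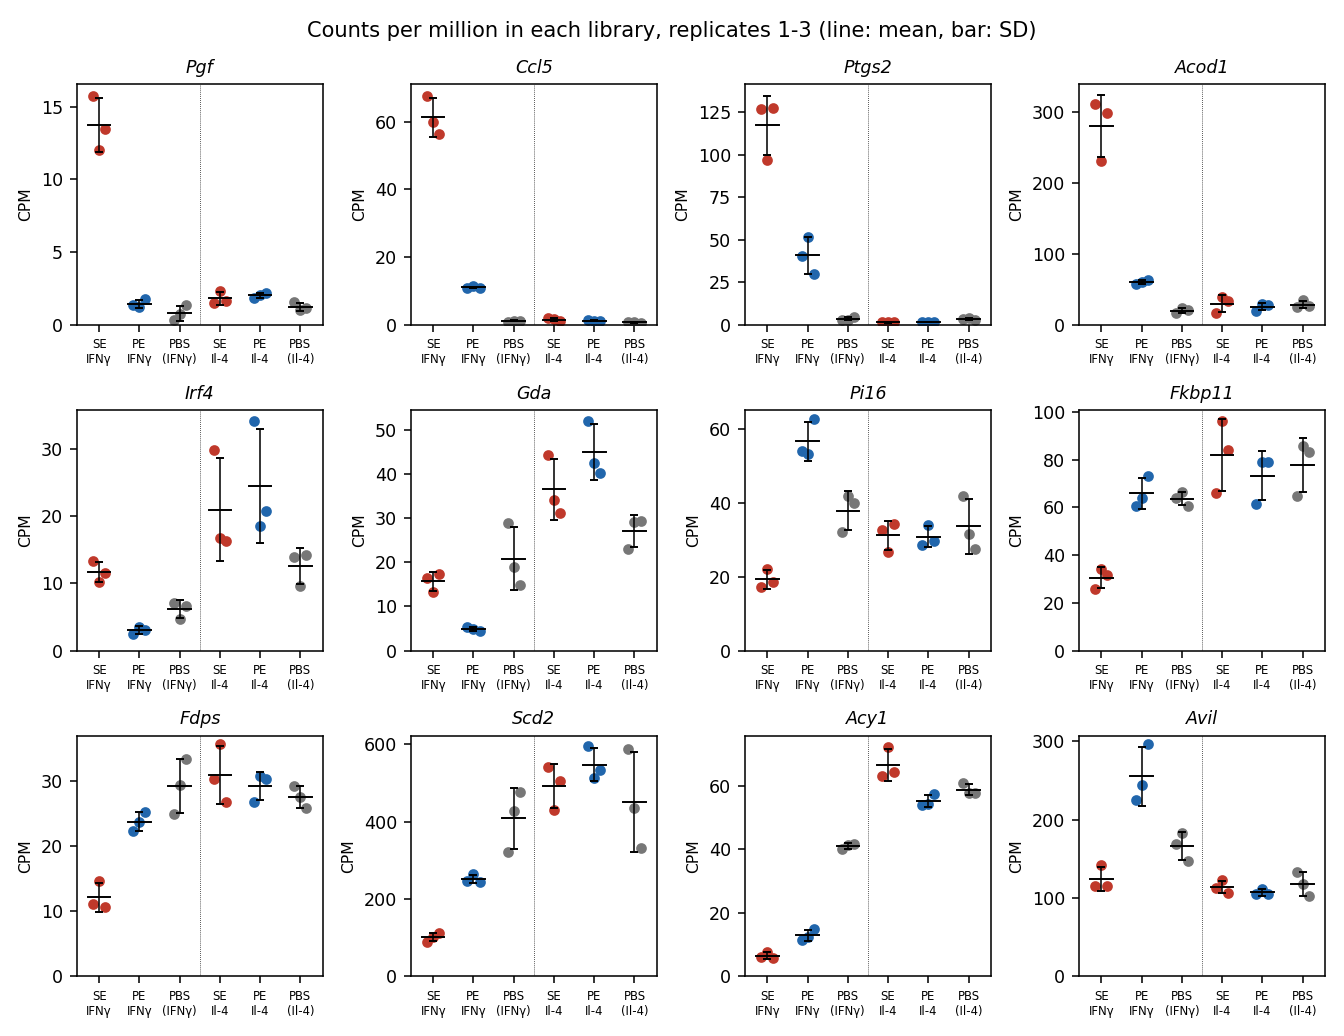
CPM of 12 genes in every library of replicates 1–3, grouped by peptide and cytokine with PBS of each table in grey (line, mean; bar, SD). The first 6 panels are positive genes, with 65–79*SE above 65–79*PE with IFNγ, and the last 6 are negative genes, with the reverse order, while with Il-4 the peptides overlap in every panel but Ptgs2 and Acy1.

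Some negative genes that the naming rule picked had almost no counts in the Il-4 table. Rpl29-ps5, Rps27a-ps2, Gm3571, Gm11605 and Gm12251 were at 20.7 to 293 CPM with IFNγ and at or below 1.08 CPM with Il-4. Bglap2, an osteocalcin gene with a near-identical neighbour, was at 16.1, 19.8 and 15.6 CPM in 65–79*SE against 59.4, 64.0 and 77.0 in 65–79*PE with IFNγ, and at 0.748 CPM or less with Il-4. Their interactions compare well counted with barely counted values, and the part that the tables play in them was not tested. The same holds for the heat shock genes Hspa1a and Hspa1b, which are near copies of each other, with IFNγ values of 19.7 to 33.6 against 6.35 to 7.51 CPM and 26.9 to 43.3 against 8.77 to 9.35 CPM. In all, 24 called genes differed over 4-fold between the PBS groups of the tables, and 5 were at the floor in the Il-4 libraries. A fit of the genes within 4-fold and above the floor called 578 of 12387, of which 528 were among the 576.

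Gene lists are described by their members called, beside 3.79% of all genes. Of 16 chemokine ligands tested, 6 were called, all positive: Ccl5, Cxcl2, Cxcl16, Ccl3, Ccl9 and Cxcl11. The median interaction of the 13 above the Il-4 floor was 0.84, against -0.04 over all genes. Cxcl16, a scavenger receptor and chemokine, was at 184, 161 and 180 CPM in 65–79*SE and 73.9, 66.5 and 62.6 in 65–79*PE with IFNγ, and overlapped with Il-4 at 67.3 to 112 CPM (interaction 1.49 ± 0.21, adjusted p = 0.00109). Cxcl2, which draws neutrophils, was at 76.4, 63.3 and 73.1 CPM against 32.6, 32.8 and 28.8 with IFNγ and at 4.80 to 10.9 CPM with Il-4 (interaction 1.36 ± 0.29, adjusted p = 0.0123). With Il-4 replicates 4–6 the direction of Cxcl2 turned, at -0.49 (adjusted p = 0.719). Cxcl11 was called too, but its Il-4 libraries held 3 counts or fewer, so no size is given. Ccl2, which draws monocytes, was not called, at 51.4 to 54.9 against 36.3 to 41.4 CPM with IFNγ and an interaction of -0.02 ± 0.34.

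Of 27 immediate early, AP-1 and MAPK feedback genes, 9 were called, all positive, with a list median of 0.47. These were the factors Myc (1.69 ± 0.35), Maff (1.72 ± 0.23), Egr1 (1.44 ± 0.22), Jun and Atf3, the phosphatases Dusp1 (1.70 ± 0.23), Dusp4 and Dusp5, and the mRNA decay factor Zfp36. Others of the list were not called, among them Fos at 0.34 and Junb at -0.03. Of 35 NF-κB subunits, inhibitors and targets, 5 were called, all positive: Ptgs2, the stress sensor Gadd45b (1.68 ± 0.18), the ubiquitin-editing inhibitor Tnfaip3 (1.34 ± 0.20), Nfkbiz (1.12 ± 0.22) and Saa3. The subunit genes Nfkb1, Nfkb2, Rel, Rela and Relb were not called, with interactions of -0.10 to 0.51. Gadd45b was at 92.6, 76.1 and 87.5 CPM in 65–79*SE and 29.2, 27.2 and 26.6 in 65–79*PE with IFNγ, and overlapped at 45.4 to 70.3 CPM with Il-4.

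Of 20 NRF2 targets, which respond to oxidants and electrophiles, 3 were called, all positive: Hmox1, Gclm and Prdx1. Hmox1, heme oxygenase, was at 1734, 1636 and 1598 CPM in 65–79*SE and 786, 782 and 731 in 65–79*PE with IFNγ. With Il-4 all 6 libraries were at 278 to 336 CPM and overlapped, and the interaction was 1.03 ± 0.10 (adjusted p = 2.69e-04). Of 26 glycolysis and hypoxia genes 5 were called positive, Bnip3 (1.36 ± 0.13), Vegfa (0.88 ± 0.15), Ero1l, Slc2a1 and Hk2. Bnip3, a mitophagy receptor, was at 44.6 to 49.9 against 23.8 to 24.7 CPM with IFNγ and at 88.1 to 110 against 127 to 138 CPM with Il-4, in the opposite order without overlap. Of 12 complement genes 3 were called positive. C1qa was at 9.12, 9.27 and 9.34 against 4.88, 4.21 and 3.11 CPM with IFNγ, and at 0.792, 0.292 and 0.374 against 1.39, 0.644 and 1.37 with Il-4, where 65–79*SE was lower at the means but the libraries overlapped (interaction 2.36 ± 0.43, adjusted p = 0.00596).

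Negative calls gathered in other lists. Of 19 endoplasmic reticulum chaperone and unfolded protein response genes, 7 were called, all negative, with a list median of -0.52: Sdf2l1 (-0.75 ± 0.11), Creld2 (-0.75 ± 0.12), Dnajc3 (-0.71 ± 0.11), Manf (-0.66 ± 0.10), Dnajb11, Hyou1 and Calr. Manf, a secreted stress factor, was at 573, 648 and 615 CPM in 65–79*SE and 897, 889 and 923 in 65–79*PE with IFNγ, on either side of the PBS mean of 717. With Il-4 it was at 893, 843 and 812 against 788, 828 and 823 CPM, with overlap. Hspa5, which encodes the chaperone BiP, was not called at -0.41, nor was Xbp1 at 0.16. Of 24 cholesterol synthesis and uptake genes 8 were called, all negative, with a list median of -0.29, among them Fdps (-1.09 ± 0.19), Mvd (-0.82 ± 0.10), Acat2, Dhcr7, Ebp and Stard4. Fdps, which makes farnesyl pyrophosphate, was at 11.1, 14.7 and 10.6 CPM against 22.4, 23.7 and 25.3 with IFNγ, both below the PBS mean of 29.3, and overlapped at 26.8 to 35.7 CPM with Il-4. Hmgcs1, an early enzyme of the pathway, was not called, at 0.06.

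**Figure D3:**
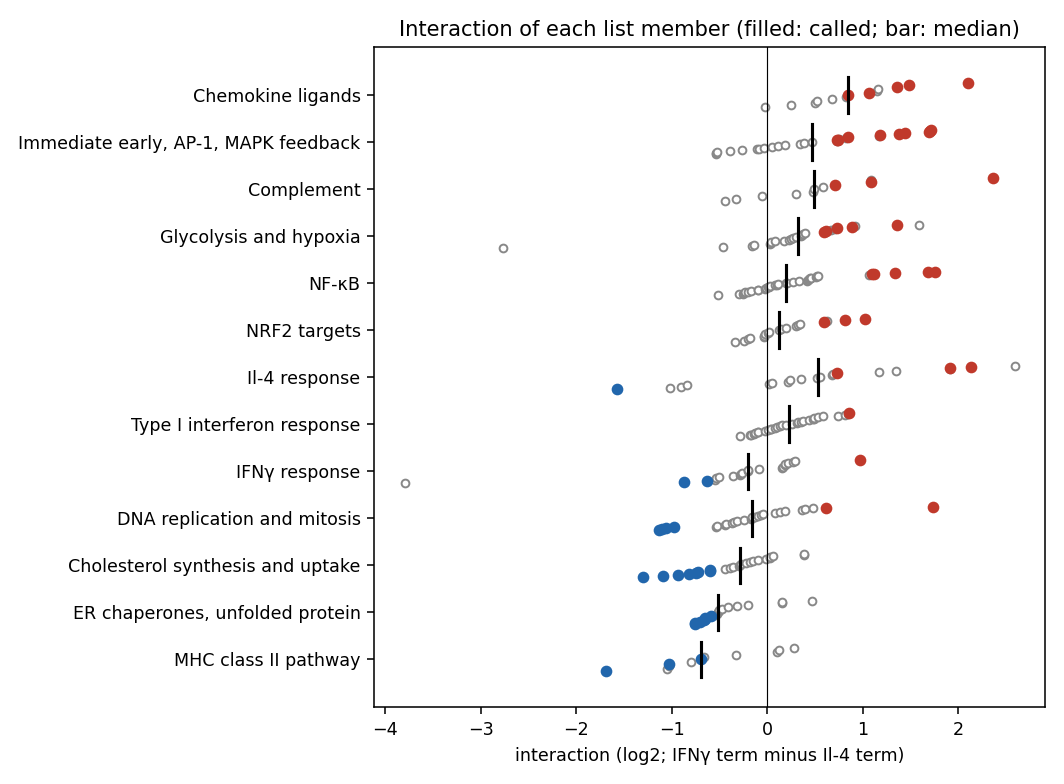
Interaction (log2, horizontal axis) of every member of 13 gene lists that was above the Il-4 floor, filled red or blue where called and open where not, with the list median as a bar. All called chemokine, immediate early, NF-κB, glycolysis and hypoxia, complement and NRF2 genes lie above 0, and all called endoplasmic reticulum, cholesterol and MHC class II genes lie below 0.

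Of 12 MHC class II pathway genes 3 were called, Ciita, Cd74 and H2-DMb2, all negative, with a median of -0.70 for the 11 above the floor. Ciita, the class II transactivator, was at 10.9, 9.01 and 9.96 CPM in 65–79*SE and 15.8, 15.2 and 14.0 in 65–79*PE with IFNγ. With Il-4 it was at 0.905, 0.418 and 0.706 against 0.526, 0.172 and 0.249 CPM, low values that overlapped and whose means were in the reverse order (interaction -1.69 ± 0.40, adjusted p = 0.0224). Cd74, the invariant chain, was at 3180, 3377 and 3452 against 4722, 4549 and 4705 CPM with IFNγ and overlapped at 1406 to 1910 CPM with Il-4 (interaction -0.70 ± 0.15, adjusted p = 0.0123). Of 29 other IFNγ response genes 3 were called, Irf1 (-0.87 ± 0.15) and the immunoproteasome gene Psmb10 negative and the checkpoint ligand gene Cd274 (0.97 ± 0.25) positive. Irf1, a factor that IFNγ induces directly, was at 71.8, 75.7 and 81.4 CPM against 114, 115 and 132 with IFNγ, and overlapped at 21.9 to 30.5 CPM with Il-4. The calls of Cd274 and H2-DMb2 were lost in 9 and 11 of the 12 fits that left out 1 library.

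Of 27 DNA replication and mitosis genes 21 were not called, and the called ones went both ways. Ccnb2 (-1.13 ± 0.28), Cdc20 (-1.10 ± 0.26), Plk1 (-1.06 ± 0.18) and Aurka were called negative, and Ccne2 (1.74 ± 0.37) and Pcna positive. The call of Ccnb2 was lost in 6 of the 12 fits without 1 library and that of Cdc20 in 3. With Il-4 replicates 4–6 edgeR did not call Ccnb2, Cdc20 or Plk1 (adjusted p = 0.19, 0.25 and 0.50). Without SE replicate 4 with Il-4 all of these were called. Plk1, a mitotic kinase, was at 16.8, 19.0 and 20.1 against 38.2, 33.2 and 32.1 CPM with IFNγ and overlapped at 18.1 to 27.9 CPM with Il-4. Of 21 Il-4 response genes 4 were called, Irf4, Cish and Tgm2 positive and Alox15 negative. Cish and Alox15 were below 1 CPM and at 0.660 to 2.25 CPM with IFNγ, respectively.

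Common markers of M1 and M2 were also tested, 7 and 2 of them, and none were called for the interaction. With the replicate block 1 was called, Nos2 at 0.61 (adjusted p = 0.0289), and with no filter on low counts also 1. Nos2, inducible nitric oxide synthase, was at 326, 284 and 323 CPM in 65–79*SE and 204, 180 and 171 in 65–79*PE with IFNγ, without overlap, and at 3.36 to 7.44 CPM with Il-4. Its interaction was 0.61 ± 0.32 (adjusted p = 0.269). Tnf was at 67.5, 63.8 and 64.7 against 50.2, 46.7 and 49.8 CPM with IFNγ and at 12.6 to 27.8 CPM with Il-4, and its interaction was 0.42 ± 0.33 (adjusted p = 0.474). The interactions of Cxcl10 (0.50 ± 0.59), Il1b (2.61 ± 1.18), Il6 (-1.06 ± 0.68), Il23a (-1.04 ± 0.59), Arg1 (1.91 ± 1.72) and Mgl2 (0.05 ± 0.26) also missed the threshold, all but Mgl2 with libraries of 1 cytokine near or under 1 CPM. Of 17 osteoclast, 22 lysosome, 6 NADPH oxidase and 3 metallothionein genes tested, none were called. Of 34 type I interferon response genes 1 was called, Ifi204 (0.86 ± 0.18). Of 28 integrated stress response genes 2 were called negative, of 11 costimulatory and checkpoint ligands 1 positive and 2 negative, and of 21 pattern recognition receptors 2 positive. Single calls came from 18 inflammatory cytokines, 13 LXR targets and 11 fatty acid synthesis genes, all negative, and from 14 eicosanoid genes, positive. None came from 13 mitochondrially encoded mRNAs. The replicate block called 906 of all 15204 genes, 597 of them positive. Positive calls there numbered 4 of 34 for type I interferon, 8 of 26 for glycolysis and hypoxia and 5 of 12 for complement. They numbered 6 of 21 for Il-4 response, 2 of 18 for inflammatory cytokine and 2 of 13 for LXR genes. In that fit 1 of 17 osteoclast genes was called negative and 1 of 22 lysosome genes positive. Over all 15204 genes that fit called 309 negative and 597 positive.

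Promoters are shown for Irf4 and Cxcl2, positive genes, and for Irf1 and Creld2, negative ones, to show the letters searched for in genes of the chemokine, Il-4, IFNγ and endoplasmic reticulum lists. The bases lie before both the RefSeq and the GENCODE start, from RefSeq's GRCm38.p6, 5′ to 3′ on the strand of the gene. Capitals mark the NF-κB motif (GGG, any 4 bases, TCC, or its reverse complement), and in Irf1 the IFNγ-activated site, GAS (TTC, any 3 bases, GAA).
Irf4, chr13:30748983-30749225, plus strand: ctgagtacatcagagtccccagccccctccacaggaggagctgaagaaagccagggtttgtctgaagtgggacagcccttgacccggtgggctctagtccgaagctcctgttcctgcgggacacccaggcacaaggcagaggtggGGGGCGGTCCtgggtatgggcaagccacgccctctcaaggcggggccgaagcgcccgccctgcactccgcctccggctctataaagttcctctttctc
Cxcl2, chr5:90903649-90903870, plus strand: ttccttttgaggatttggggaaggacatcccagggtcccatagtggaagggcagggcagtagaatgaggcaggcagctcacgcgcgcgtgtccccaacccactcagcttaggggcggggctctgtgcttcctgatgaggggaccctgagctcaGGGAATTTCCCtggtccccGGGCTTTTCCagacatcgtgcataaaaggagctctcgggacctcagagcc
Irf1, chr11:53769764-53770013, plus strand: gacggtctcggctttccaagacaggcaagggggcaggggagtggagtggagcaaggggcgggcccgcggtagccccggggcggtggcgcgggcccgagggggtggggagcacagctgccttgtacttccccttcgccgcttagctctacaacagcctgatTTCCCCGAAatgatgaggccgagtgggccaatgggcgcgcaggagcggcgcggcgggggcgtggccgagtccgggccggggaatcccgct
Creld2, chr15:88819396-88819645, plus strand: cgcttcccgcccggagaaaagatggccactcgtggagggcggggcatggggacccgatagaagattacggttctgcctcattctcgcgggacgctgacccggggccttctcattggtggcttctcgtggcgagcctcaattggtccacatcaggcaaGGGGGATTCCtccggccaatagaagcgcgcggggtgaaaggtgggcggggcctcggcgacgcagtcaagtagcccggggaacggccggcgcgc
The NF-κB motif was in 28.1% of 256 promoters of positive genes and in 24.2% of 153 of negative genes, against 23.9% of 9418 promoters of genes tested and 19.0% of all 27025, counted over 300 bases (250 before the start and 50 after) on both strands. The GAS motif was in 4.69%, 7.84%, 6.88% and 8.44% of the same sets, and the STAT6 motif (TTC, any 4 bases, GAA) in 3.52%, 4.58%, 5.48% and 6.98%. The interferon-stimulated response element core (GAAA, any 2 bases, GAAA) was in 3.91%, 2.61%, 3.40% and 3.49%, and the AP-1 motif TGANTCA in 4.30%, 3.27%, 4.94% and 7.87%. No test was made of these shares, and a match is only a match of letters.

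Il-4 replicates 4, 5 and 6, which were not used above, gave the Il-4 term once more. In their own fit none of 13463 genes were called between the peptides (0%), 1115 had an unadjusted p-value under 0.05 in edgeR, and DESeq2 called 22. Of 543 called genes tested in both sets of replicates, 265 (48.8%) had the same sign, against 56.3% of all genes. The called genes were chosen by an interaction that subtracts the Il-4 term of replicates 1–3, which lowers this share. Among called genes with an unadjusted p-value under 0.05 in both sets, 18 had the same sign and 3 the opposite sign. The same count over all genes was not taken, so these numbers have no background. In replicates 4–6, which the choice did not use, 228 of 336 positive genes (67.9%) were higher with 65–79*SE, against 51.8% of all genes. Of 207 negative genes, 99 (47.8%) were higher with 65–79*SE. SE replicate 4 had the highest median deviation of the libraries, 0.257 (log2), followed by SE replicate 1 with Il-4 at 0.217. Acod1 was at 80.8, 16.8 and 19.3 CPM in 65–79*SE and 11.7, 10.4 and 12.2 in 65–79*PE in these replicates, and Ptgs2 at 48.2, 12.4 and 10.4 against 12.8, 10.1 and 6.36. Without SE replicate 4 with Il-4, 188 of 336 positive genes (56.0%) were higher with 65–79*SE. So were 113 of 207 negative genes (54.6%), against 51.8% of all genes.

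With this Il-4 term in place of the first, and the same IFNγ libraries, 282 of 16601 genes tested were called for the interaction. Of these, 159 were among the 576. Without SE replicate 4, left out after its values were seen, 577 of 17071 were called, 300 of them among the 576. The list counts that follow stand beside these shares of all genes. With all 6 libraries of replicates 4–6, endoplasmic reticulum genes had 11 negative calls of 19 and cholesterol genes 5, chemokines had 3 positive calls and immediate early genes 4. Without SE replicate 4 these counts were 10, 7, 4 and 7. In both settings MHC class II genes had no call and glycolysis and hypoxia genes had 1 negative. Pgf had an Il-4 term of 1.32 in replicates 4–6 and -0.13 in replicates 1–3, and Myc 1.48 and 0.15. For Irf4 the values were -0.42 and -0.22, for Gda -0.33 and -0.29 and for Manf 0.26 and 0.08. Of the 78 called genes that the naming rule picked, 27 were still called with Il-4 replicates 4–6, 46 were not and 5 turned sign, while without SE replicate 4 these counts were 50, 27 and 1. Among genes described above, Dusp1, Irf4, Gda, Tmem26, Pi16, Fkbp11, Scd2, Acy1, Avil, Cxcl16, Gadd45b, Irf1, Manf and Fdps were called in both settings. Pgf, Acod1, Ptgs2, Myc and Plk1 were called only without SE replicate 4. Ccl5, Hmox1, Bnip3, C1qa, Ciita and Cd74 were called in neither. The plot of the 3 sets of libraries shows 22 called genes beside the IFNγ term. Ccl5, Bnip3, C1qa, Ciita, Cd74 and Plk1 are not drawn there.

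**Figure D4:**
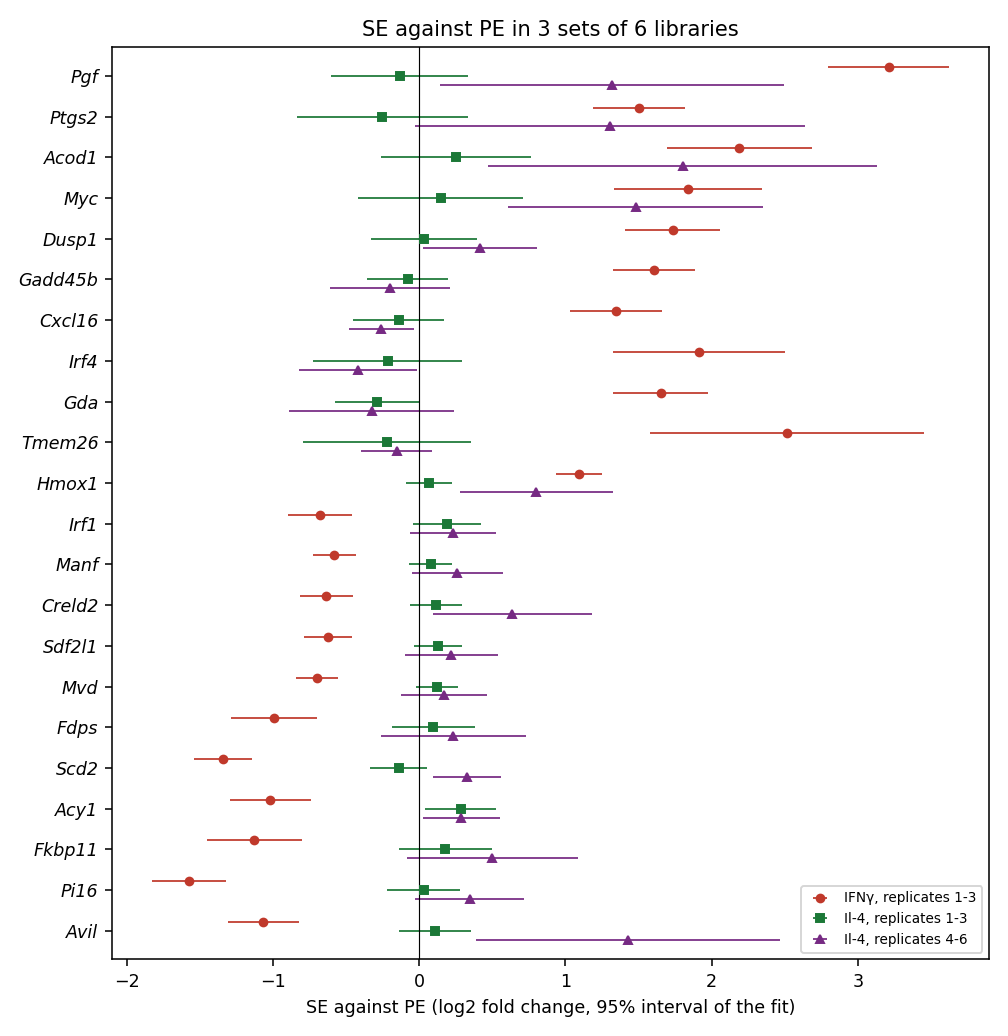
65–79*SE against 65–79*PE (log2 fold change, 95% interval of the fit) of 22 called genes with IFNγ in replicates 1–3 (circles), with Il-4 in replicates 1–3 (squares) and with Il-4 in replicates 4–6 (triangles). The 22 were picked by hand from the 78 called genes of the naming rule. Most of them were still called with Il-4 replicates 4–6, against 27 of the 78, and none of the 5 that turned sign is drawn. They were chosen through the same IFNγ libraries, which favours IFNγ intervals away from 0, and these exclude 0 in all 22. Triangles lie on the side of the circles for Pgf, Ptgs2, Acod1, Myc, Dusp1 and Hmox1.

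Leaving out libraries moved the number of calls. Without SE replicate 1 with IFNγ, the count was 269 and without PE replicate 3 with IFNγ 318, while without SE replicate 1 with Il-4 it was 1465, 952 positive and 513 negative. Of the 576 genes, 230 were called in all 12 fits that left out 1 library. A block for the replicate number gave 906, of which 567 were among the 576. Besides Cd274 and H2-DMb2, the calls of Rpl29-ps5, Gm11605, Gm12251, Cxcl11, Alox15, Tgm2, Fasn, Ero1l, Ccnb2, C1qc and Cd80 were lost in 6 to 11 of those 12 fits.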

How the data were processed

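RNA of 36 libraries was sequenced by the authors as single-end reads from stranded, poly(A)-selected libraries, and uniquely aligned reads were counted per gene with featureCounts on GENCODE M12 (GRCm38.p5). The aligner and strand option are not given in the sources used here. The deposited values were raw counts of reads per gene, with no normalization, in 1 table per cytokine, and 49568 gene names were joined by name. In 26 of them the name had become a date, and none of these is used. Without a stated strand option, overlapping genes cannot be told apart.

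The 12 libraries of replicates 1–3 were fitted together in edgeR 4.0.16 (R 4.3.3) with TMM, filterByExpr, glmQLFit and glmQLFTest, 1 mean per group. A call needed a p-value below 0.05 after Benjamini-Hochberg adjustment over all genes tested, together with a fold over 1.5. The authors used DESeq2. The study calls its replicates biological, while the labels do not name separate cultures, so p-values measure the spread between these samples, which may be technical. Same-numbered Il-4 libraries deviated together (correlations of 0.378, 0.123 and 0.135 over genes) and same-numbered IFNγ libraries did not (0.015, -0.045 and -0.028), so a block was fitted beside the main design. Positions are from GENCODE M21 by symbol.

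Named genes were up to 15 called genes each way with the largest interaction, a mean of at least 10 CPM in some group and peptides not overlapping under the cytokine with the larger difference, up to 4 called genes per list, and the M1 and M2 markers. Results of some genes are not reported here. Any other gene in the text was picked with its values in view. The members and lists were chosen with earlier results of these data known. The fit was tested on simulated data.

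Alternatives were RLE factors, library totals, DESeq2 1.42.0, voom of limma 3.58.1 with a weight per table, other filters and gene sets, PBS libraries in the fit, the block and each library left out. Others were chosen after seeing the data: genes listed alike in both tables, each cytokine alone, and Il-4 replicates 2 and 3 alone. So were the interaction with Il-4 replicates 4–6 and the same without SE replicate 4.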

Additional observations from a re-analysis of the deposited data

Results flagged for a closer look

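The effect of 65–79*SE against 65–79*PE differed between the cytokines for 576 genes, by the test of the difference itself. The cytokine, the count table and the experiment cannot be told apart in any of these differences. Differences are the interaction on the log2 scale, for genes named by the rule. No group of these comparisons had more than 3 libraries, so no library was tested as an outlier.

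Of the positive genes, the values above 1.70 were Cxcl11 3.68, Pgf 3.35, Tmem26 2.74, Hspa1a 2.61, Hspa1b 2.49, C1qa 2.36, Ccng2 2.17, Irf4 2.13, Ccl5 2.10, Ptpn14 2.01, Dio2 1.97, Acod1 1.94, Gda 1.94, Cish 1.91, Tmod1 1.91, Sirpb1b 1.83, Ptgs2 1.76, Ccne2 1.74, Maff 1.72 and Dusp1 1.70. Those from 1 to 1.70 were Myc 1.69, Gadd45b 1.68, Cxcl16 1.49, Egr1 1.44, Cxcl2 1.36, Bnip3 1.36, Tnfaip3 1.34, Clec4e 1.18, Nfkbiz 1.12, C1qc 1.08 and Hmox1 1.03. The rest were Cd274 0.97, Vegfa 0.88, Ifi204 0.86, Gclm 0.81, Tgm2 0.73, Ero1l 0.73, Itgam 0.71, Msr1 0.67, Slc2a1 0.62 and Prdx1 0.59.

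Of the negative genes, the most negative values were Rpl29-ps5 -4.39, Bglap2 -2.56, Ciita -1.69, Pi16 -1.60, Alox15 -1.58, Rps27a-ps2 -1.46, Gm3571 -1.45, Gm11605 -1.44, Gm12251 -1.42, Fkbp11 -1.31, Acy1 -1.30, Kbtbd11 -1.21 and Scd2 -1.20. Middle values were Avil -1.18, Tmem51 -1.15, Sapcd2 -1.14, Ccnb2 -1.13, Cdc20 -1.10, Fdps -1.09, Plk1 -1.06, H2-DMb2 -1.03, Cd80 -0.89, Irf1 -0.87, Mvd -0.82, Sdf2l1 -0.75 and Creld2 -0.75. The rest were Tnfsf9 -0.72, Dnajc3 -0.71, Fasn -0.71, Cd74 -0.70, Manf -0.66, Phgdh -0.63, Psmb10 -0.63 and Psph -0.63. The values of Cxcl11 and Rpl29-ps5 depend on the prior count, since their Il-4 libraries held 3 counts or fewer, and they are no sizes.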

How the results depend on the processing

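The 576 calls for the interaction became 926 with no filter on low counts, 906 with a replicate block within each table and 1078 at the adjusted p-value alone. Leaving out 1 library gave 269 to 1465, the lowest without SE replicate 1 with IFNγ and the highest without SE replicate 1 with Il-4. Without SE replicate 3 with IFNγ it was 342 and without PE replicate 3 with IFNγ 318. With IFNγ the 809 calls became 2379 at the adjusted p-value alone and 523 to 932 with 1 library left out. With Il-4 the 0 calls became 1 by DESeq2, 26 with no filter, 3 with the replicate block, and 0 to 125 with 1 library left out. In replicates 4–6 DESeq2 called 22, and the range with 1 library left out was 0 to 0. RLE factors, library totals, DESeq2, voom, a minimum of 10 counts, protein-coding genes and PBS libraries in the fit gave 542 to 751 calls for the interaction.

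Of the alternatives chosen after seeing the data, Il-4 replicates 2 and 3 alone gave 1231 calls for the interaction and 56 with Il-4, and the Il-4 term of replicates 4–6 gave 282 for the interaction. That last setting turned the sign of 5 named genes, Gm11605 (0.24), Cxcl2 (-0.49), Ifi204 (-0.11), Ero1l (-0.34) and Slc2a1 (-0.0715), and without its SE replicate 4 of Gm11605 (0.58). It also ended the calls of 46 of the 78 called named genes and left 27. The cause was not tested. Counts near 0 in the Il-4 table limit the genes that could be compared.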
